A study of Mus musculus with 21 samples.

Results

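The genes described here encode the sterol regulatory element binding proteins (SREBPs), the proteins that retain or escort them, and the enzymes of cholesterol and fatty acid synthesis under their control. Members were chosen by gene name, with earlier results of these data known. They were 5 regulators, 10 enzymes of the mevalonate and squalene steps, and 6 genes of fatty acid synthesis. The other 10 were genes of the steps from lanosterol to cholesterol and of sterol transfer. All 31 were present among the 17164 genes of the count table, and all 31 were among the 16797 genes that passed the filter on low counts. SREBP-2, the product of Srebf2, mainly drives genes of cholesterol synthesis, and SREBP-1, the product of Srebf1, mainly those of fatty acid synthesis. When membranes of the endoplasmic reticulum hold little sterol, SCAP escorts the SREBPs to the Golgi, where proteases free their active part. When sterol is plentiful, INSIG proteins hold SCAP back, and Insig1 is itself an SREBP target. In the retina, neurons and Müller glia both make cholesterol, and neurons also take up sterol supplied by glia.

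The study sequenced RNA of mouse retinal ganglion cells (RGCs), which send their axons through the optic nerve, sorted 3 d after a crush of that nerve. The mice were of the strain C57BL/6 and were listed at 6 to 7 weeks of age. They had received a guide RNA against ATF3, ATF4, CEBPG or CHOP (gene Ddit3), which are stress-responsive leucine zipper transcription factors, or a non-targeting guide as control. All groups therefore share the crush and guide treatment, and no uninjured group was used. There were 4 control libraries, 5 of the ATF3 knockout, 2 of ATF4, 4 of CEBPG and 5 of CHOP. The labels used here do not say how the guides reached the cells, nor whether each library is a different animal, and the tests therefore rest on the spread between libraries alone.

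The control libraries held 6401446 to 11752828 counted reads and the knockout libraries 9000250 to 32776378. According to the sample sheet, the controls were male and formed batch 2, the ATF3, CEBPG and CHOP knockouts were female and formed batch 3, and the ATF4 knockouts, of both sexes, formed batch 1. Differences from control therefore cannot be told apart from batch and, for batch 3, sex, while the ATF3, CEBPG and CHOP knockouts can be compared within 1 batch and sex. CEBPG replicates 6 and 8 stood apart from all other libraries on the fourth principal component, with scores of -99.3 and 102. Atf3 was at 113 ± 9.28 CPM (counts normalised to library size; SD, n = 4) in the controls and 38.3 ± 6.68 CPM (SD, n = 5) in the ATF3 knockouts. Atf4 was at 154 ± 7.96 CPM (SD, n = 2) in its own knockouts against 301 ± 71.7 CPM (SD, n = 4) in the controls. Cebpg was not called lower in its own knockouts (adjusted p = 0.491), and Ddit3 differed from control by a log2 difference of -0.43 in the CHOP knockouts (SE 0.12, adjusted p = 0.00908). These drops were not particular to the targeted group. Atf3 was at 36.9 CPM in CHOP, Atf4 at 87.9 to 130 CPM in ATF3, CEBPG and CHOP, and Ddit3 at 61.9 CPM in ATF3 and 66.5 CPM in CEBPG against 65.5 CPM in CHOP. Transcript levels therefore do not check the knockout labels here, and guides can disrupt a protein without lowering its transcript. The summed ganglion cell markers took 0.0435% to 0.0633% of the reads of a library. Of these 10 markers, 3 were called higher and 4 lower than control in ATF3, and 4 and 0 in ATF4. In CEBPG these counts were 1 and 3, and in CHOP 2 and 3. Of all genes, 33.4%, 31.3%, 33.4% and 33.5% were called in these comparisons. Pou4f2, which encodes the RGC factor BRN3B, had 0 reads in every CEBPG library. It was low in the other groups too, with means of 0.173 to 2.91 CPM. Rod markers took 3.51% to 5.25% in the controls and 0.310% to 0.840% in the knockouts, with all 11 of the list called lower in each knockout.

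Among knockouts of the same batch, part of the 31 members, not including Srebf1, was higher in the CHOP knockouts than in the ATF3 and CEBPG knockouts. A gene is said here to be higher or lower, or to have been called, where its adjusted p was below 0.05 over all genes tested (edgeR quasi-likelihood test, Benjamini-Hochberg adjustment). In the ATF3 knockouts 12 of 31 members were lower than in the CHOP knockouts and 0 were higher, where 2.26% of all genes differed (1.51% higher and 0.756% lower). The median log2 difference of the 31 members was -0.44, beside -0.01 over all genes. For 15 members every ATF3 library lay below every CHOP library, which held for 3.6% of all genes. In the CEBPG knockouts 17 of 31 members were lower than in the CHOP knockouts and 0 were higher, where 26.7% of all genes differed (13.5% higher and 13.2% lower). There the median was -0.53, beside -0.03 over all genes, and 15 members did not overlap, as did 9.92% of all genes in that direction. Both comparisons share the 5 CHOP libraries. Without CEBPG replicates 6 and 8, 12 members remained called lower than in CHOP. In that fit 20.8% of all genes differed (of 16790 tested, 2002 were higher and 1487 lower). Between the ATF3 and CEBPG knockouts 20.4% of all genes differed (10.1% higher and 10.2% lower in ATF3), and 3 members, Scd2, Acly and Elovl6, were higher in ATF3. That count was 1 without any of ATF3 replicates 8 and 9 and CEBPG replicate 6 (16.6%, 17.1% and 17.5% of all genes), and 0 without CEBPG replicates 6 and 8 together (14.3%).

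Between 13 and 15 of the 31 members differed from the controls in each knockout. In the ATF3 knockouts 4 members were higher and 9 lower, where 33.4% of all genes differed (18.6% higher and 14.8% lower). In the ATF4 knockouts 10 were higher and 5 lower, beside 31.3% of all genes (16.6% higher and 14.6% lower). In the CEBPG knockouts 2 were higher and 11 lower, beside 33.4% (18.3% higher and 15% lower). In the CHOP knockouts 11 were higher and 3 lower, beside 33.5% (18.1% higher and 15.4% lower). The members' medians were -0.15, -0.15, -0.25 and 0.24 for ATF3, ATF4, CEBPG and CHOP, beside 0.06, 0, 0.06 and 0.01 over all genes. All 4 comparisons share the control libraries. Some counts rested on single libraries: the ATF4 count of 15 was 5 without ATF4 replicate 1, 9 without ATF4 replicate 3 and 9 without control replicate 5, where 19.7%, 23.7% and 27.1% of all genes were called. The CHOP count of 14 was 8 without control replicate 5 and 9 without CHOP replicate 3, where 30% and 32% of all genes were called.

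**Figure D1:**
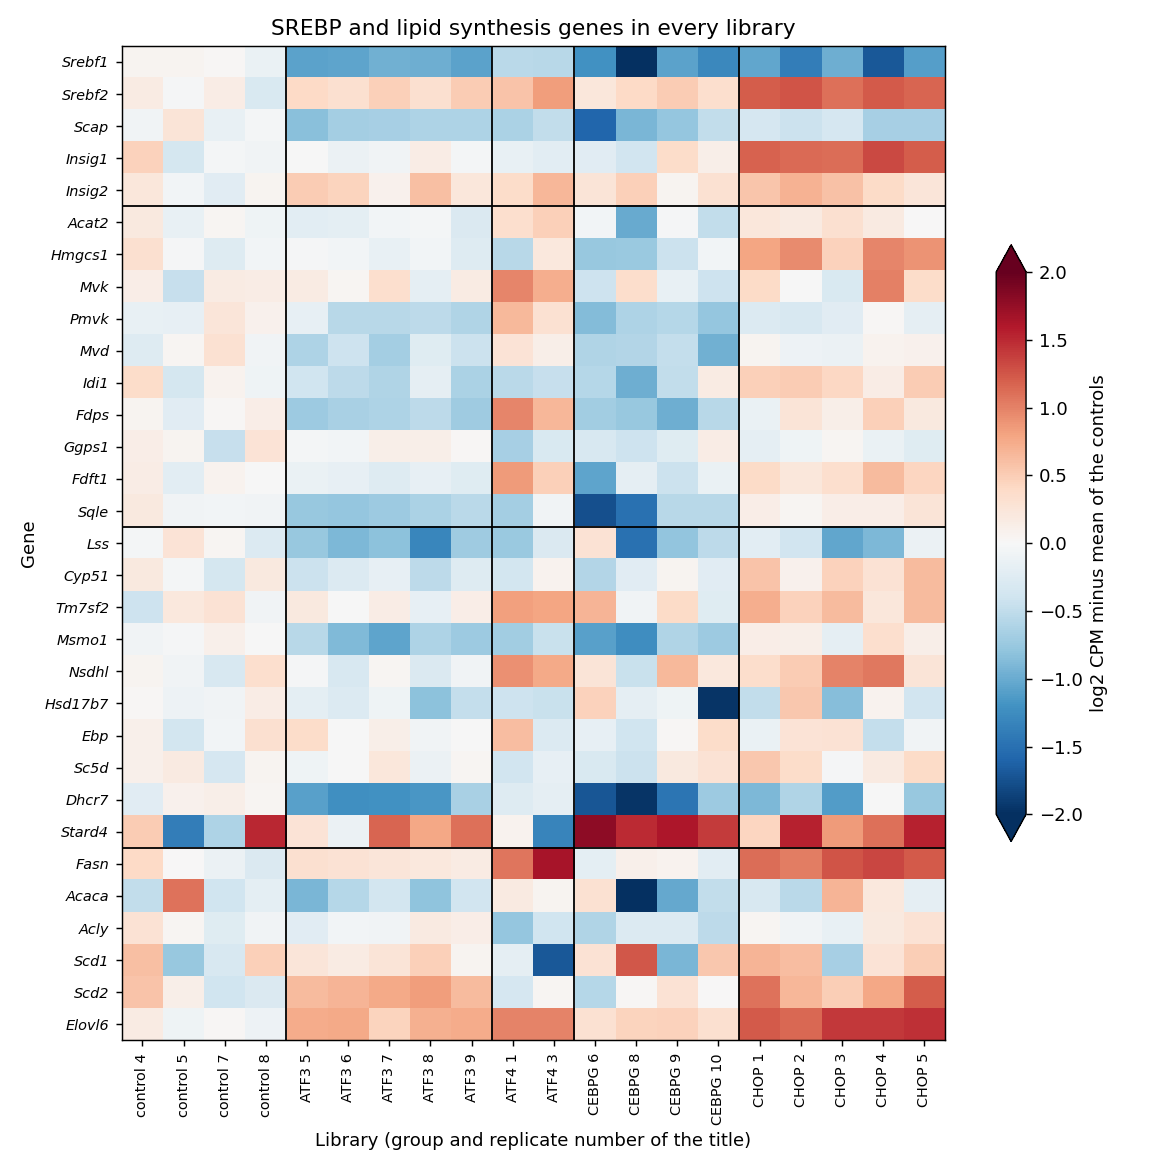
Level of each of the 31 genes (rows, in order of role, roles parted by lines) in each of the 20 libraries (columns, groups parted by lines), as log2 CPM minus the mean of the controls. Colours stop at 2 in either direction. The rows of Insig1, Srebf2, Hmgcs1, Fasn and Elovl6 are darkest red in the 5 CHOP libraries (for Fasn also in ATF4), and the Srebf1 row is blue in all knockouts.

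The SREBP genes themselves moved in opposite directions. Srebf1 was at 216, 242, 245 and 247 CPM in the controls and at 162 and 163 CPM in the ATF4 knockouts. It was at 112 to 122 CPM in the 5 ATF3 libraries, at 59.4, 97.2, 102 and 113 CPM in CEBPG and at 73.2, 90.7, 111, 115 and 121 CPM in CHOP. No knockout library reached the lowest control, and the 3 groups of batch 3 overlapped one another. Srebf1 was lower than in the controls by a log2 difference of -1.03 (SE 0.15, adjusted p = 8.72e-06) in ATF3, -0.55 (SE 0.20, adjusted p = 0.0373) in ATF4, -1.35 (SE 0.16, adjusted p = 4.55e-07) in CEBPG and -1.22 (SE 0.15, adjusted p = 7.74e-07) in CHOP. The ATF4 call ended without control replicate 4 or without either ATF4 replicate. Within batch 3, Srebf1 differed by 0.19 between ATF3 and CHOP (adjusted p = 0.681) and by -0.13 between CEBPG and CHOP (adjusted p = 0.563).

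Srebf2 was at 85.1, 104, 117 and 118 CPM in the controls and at 156 and 187 CPM in the ATF4 knockouts. It was at 130, 131, 138, 145 and 150 CPM in ATF3, at 123, 133, 138 and 149 CPM in CEBPG and at 226, 235, 243, 246 and 250 CPM in CHOP. Every knockout library lay above every control, and every CHOP library lay above every other library. The log2 difference from control was 1.18 in CHOP (SE 0.11, adjusted p = 7.52e-09), 0.69 in ATF4 (SE 0.13, adjusted p = 0.000261), 0.39 in ATF3 (SE 0.10, adjusted p = 0.00508) and 0.36 in CEBPG (SE 0.11, adjusted p = 0.0131). The CEBPG call ended without control replicate 8. Srebf2 was lower than in CHOP by -0.79 in ATF3 (SE 0.10, adjusted p = 4.55e-05) and by -0.82 in CEBPG (SE 0.10, adjusted p = 3.6e-06). Srebf2 and Elovl6 were the members called higher than control in all 4 knockouts, and Srebf1 and Scap those called lower in all 4. The share of all genes called in the same direction in all 4 was not counted, and these comparisons share the control libraries.

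Insig1, which encodes the retention protein that SREBPs themselves induce, showed the widest gap between ATF3 and CHOP of all 31 members. It was at 45.0, 55.0, 55.9 and 79.4 CPM in the controls, at 49.8 and 51.7 CPM in ATF4, and at 53.0, 54.6, 56.0, 57.5 and 63.8 CPM in ATF3. It was at 44.0, 49.3, 62.5 and 74.4 CPM in CEBPG and at 125, 127, 130, 133 and 145 CPM in CHOP. The CHOP libraries lay above all others, and the remaining groups overlapped the controls. Insig1 was 2.32-fold higher in CHOP than in ATF3 (ATF3 minus CHOP -1.21, SE 0.14, adjusted p = 3.58e-05) and 2.29-fold higher than in CEBPG (-1.19, SE 0.16, adjusted p = 4.86e-06). It was 1.16 above control in CHOP (SE 0.16, adjusted p = 2.91e-06), and its differences from control in the other knockouts lay between -0.22 and -0.03 with no call.

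Insig2 encodes the other retention protein of the family. It was at 81.7, 91.8, 99.0 and 111 CPM in the controls, at 123 and 152 CPM in ATF4 and at 101, 111, 130, 135 and 144 CPM in ATF3. It was at 99.0, 115, 118 and 132 CPM in CEBPG and at 113, 125, 139, 143 and 154 CPM in CHOP. The groups of batch 3 overlapped, and Insig2 differed by -0.11 between ATF3 and CHOP (adjusted p = 0.824) and by -0.22 between CEBPG and CHOP (adjusted p = 0.230). Against control it was higher in CHOP (0.49, adjusted p = 0.00516), ATF4 (0.52, adjusted p = 0.0190) and ATF3 (0.38, adjusted p = 0.0293). The ATF3 call ended when any of control replicates 5, 7 and 8 or ATF3 replicates 5, 6 and 8 was left out, and the ATF4 call without control replicate 5 or 7 or ATF4 replicate 3.

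Scap, the escort of the SREBPs, was lower than control in all 4 knockouts. It was at 120, 127, 131 and 161 CPM in the controls, at 86.1 and 95.1 CPM in ATF4 and at 74.9, 83.1, 84.6, 87.0 and 87.7 CPM in ATF3. It was at 44.7, 70.7, 78.3 and 95.4 CPM in CEBPG and at 84.1, 84.2, 99.7, 106 and 106 CPM in CHOP. No knockout library reached a control. The log2 differences from control were -0.69 in ATF3 (adjusted p = 0.00111), -0.57 in ATF4 (adjusted p = 0.0355), -0.89 in CEBPG (adjusted p = 0.000145) and -0.49 in CHOP (adjusted p = 0.0165). The ATF4 call ended without control replicate 5 or either ATF4 replicate, and the CHOP call without control replicate 5. The 2.26% of genes called between ATF3 and CHOP did not include Scap (-0.20, adjusted p = 0.655).

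**Figure D2:**
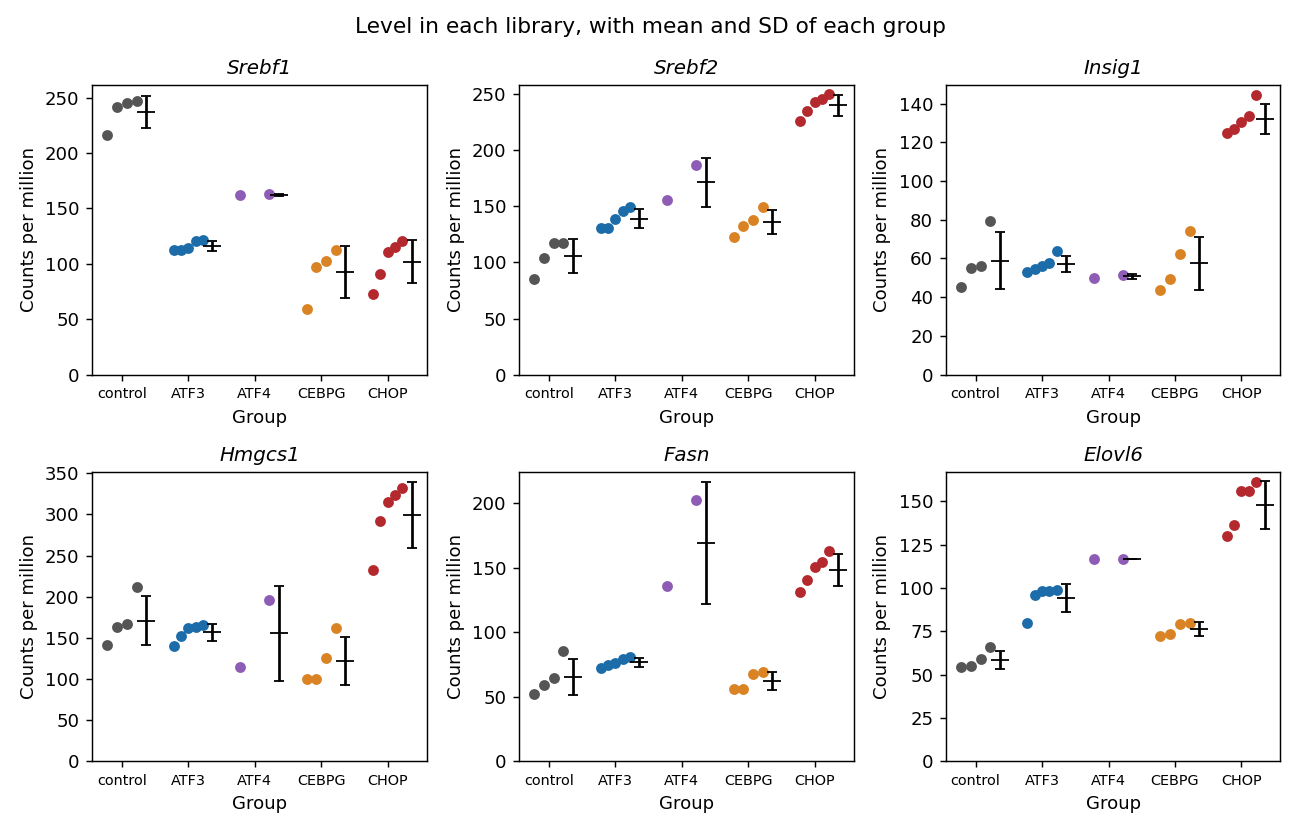
CPM of 6 genes in each library (points, in rising order within a group), with the mean and SD of each group to the right of its points. For Srebf2, Insig1 and Hmgcs1 the 5 CHOP libraries lie above all other libraries, while for Srebf1 the 4 controls do.

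The bases before the starts of Srebf2, Insig1, Hmgcs1 and Fasn are shown because these genes separated the CHOP libraries from the other knockouts of the batch. They come from RefSeq's promoters for GRCm38.p6 (mm10), which held 25 of the 31 members with 33 promoters. The windows are chr15:82147019-82147180 (plus strand) for Srebf2, chr5:28071162-28071362 (plus strand) for Insig1, chr13:119690101-119690350 (plus strand) for Hmgcs1 and chr11:120824548-120824797 (minus strand) for Fasn. The last 88 bases for Srebf2 and 49 for Insig1 were left out because they lie within the GENCODE gene model. Sequences read 5′ to 3′ towards the gene, and capitals mark ATTGGC, an inverted CCAAT box of the kind bound by NF-Y, and TCACCCCAC, a core of the sterol regulatory element.
Srebf2: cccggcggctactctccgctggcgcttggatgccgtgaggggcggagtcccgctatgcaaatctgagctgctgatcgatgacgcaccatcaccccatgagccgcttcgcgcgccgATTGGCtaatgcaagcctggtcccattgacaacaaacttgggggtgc
Insig1: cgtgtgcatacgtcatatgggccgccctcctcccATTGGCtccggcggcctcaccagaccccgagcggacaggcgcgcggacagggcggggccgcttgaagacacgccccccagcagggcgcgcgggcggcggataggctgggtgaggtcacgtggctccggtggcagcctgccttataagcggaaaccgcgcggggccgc
Hmgcs1: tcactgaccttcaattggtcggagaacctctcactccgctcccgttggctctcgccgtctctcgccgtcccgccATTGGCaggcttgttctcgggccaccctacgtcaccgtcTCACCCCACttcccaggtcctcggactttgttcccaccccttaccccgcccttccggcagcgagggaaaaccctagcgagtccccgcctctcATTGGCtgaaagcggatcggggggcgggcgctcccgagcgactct
Fasn: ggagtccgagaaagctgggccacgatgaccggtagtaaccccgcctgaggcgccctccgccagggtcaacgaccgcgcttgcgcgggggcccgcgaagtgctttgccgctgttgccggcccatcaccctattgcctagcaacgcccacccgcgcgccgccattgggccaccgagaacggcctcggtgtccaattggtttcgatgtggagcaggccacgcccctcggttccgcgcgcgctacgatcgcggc

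Hmgcs1 carried TCACCCCAC 137 bases before its RefSeq start and ATTGGC at 176 and 45 bases before it. Srebf2 carried ATTGGC 135 bases and Insig1 216 bases before the start, and the Fasn window held neither exact run of letters. Near forms were not searched for and are not marked, among them attggg and attggt in Fasn and tcaccccat in Srebf2. On both strands of the 250 bases before each start, ATTGGC was present in 48.5% of the 33 member promoters and in 13.5% of all 32851 promoters. It was found in 16 of the 25 members, among them Srebf1, Insig2, Mvk, Mvd, Idi1 and Msmo1. GGGCGG, the GC box of Sp1, was present in 69.7% of member promoters and 32.7% of all. TCACCCCAC was in 1 of the 33 member promoters (3.03%), that of Hmgcs1, and in 0.496% of all promoters. Its shorter form CACCCCAC, which overlaps it, was also in Acat2. The shorter form was in 6.06% of member promoters and 2.58% of all. TGATGNAA, a C/EBP-ATF response element, was in 3 of the 33 member promoters (9.09%), those of Insig2 and Idi1, and in 3.45% of all promoters. TGANTCA, an AP-1 site, was in 2 of the 33 member promoters (6.06%), those of Msmo1 and Dhcr7, and in 6.75% of all promoters. TGACGTCA and TCACGTGA were in 0 member promoters, and in 1.55% and 0.785% of all. A match is a run of letters and says nothing about binding.

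Of the mevalonate and squalene steps, 5 of 10 members were lower in ATF3 than in CHOP and 8 of 10 in CEBPG, beside 0.756% and 13.2% of all genes. The members' medians were -0.53 and -0.73, and 0 members were higher. Summed over the 10 genes, the level was 987 ± 66.3 CPM (SD, n = 5) in CHOP, 644 ± 19.6 CPM (SD, n = 5) in ATF3, 544 ± 81.9 CPM (SD, n = 4) in CEBPG, 919 ± 28.4 CPM (SD, n = 2) in ATF4 and 799 ± 59.6 CPM (SD, n = 4) in the controls. Every CHOP library was above every ATF3 and CEBPG library in this sum. In bulk RNA, fewer cells of a type and less RNA per cell cannot be told apart.

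Hmgcs1, the cytosolic synthase that makes HMG-CoA, was at 142, 163, 167 and 212 CPM in the controls, at 115 and 196 CPM in ATF4 and at 141, 152, 162, 164 and 166 CPM in ATF3. It was at 100, 101, 125 and 162 CPM in CEBPG and at 233, 292, 315, 324 and 333 CPM in CHOP. The lowest CHOP library lay above the highest library of every other group. Hmgcs1 was lower than in CHOP by -0.93 in ATF3 (SE 0.15, adjusted p = 0.000757) and by -1.29 in CEBPG (SE 0.16, adjusted p = 3.27e-06), the latter a 2.45-fold gap. Against control it was higher in CHOP (0.81, SE 0.16, adjusted p = 0.000369) and lower in CEBPG (-0.48, SE 0.17, adjusted p = 0.0293). The CEBPG call ended without control replicate 4, CEBPG replicate 6 or CEBPG replicate 8.

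Fdps, which makes farnesyl diphosphate, was at 82.0, 97.4, 98.8 and 105 CPM in the controls, at 151 and 187 CPM in ATF4 and at 57.3, 58.4, 60.9, 62.3 and 66.6 CPM in ATF3. It was at 48.3, 56.4, 58.9 and 65.1 CPM in CEBPG and at 86.8, 104, 109, 114 and 132 CPM in CHOP. ATF4 lay above and ATF3 and CEBPG below every control, while CHOP overlapped the controls. Fdps was higher than control in ATF4 (0.82, SE 0.16, adjusted p = 0.000341) and lower in ATF3 (-0.65, SE 0.13, adjusted p = 0.000272) and CEBPG (-0.75, SE 0.13, adjusted p = 0.000111). It was lower than in CHOP by -0.84 in ATF3 (adjusted p = 0.000198) and by -0.93 in CEBPG (adjusted p = 8.97e-06).

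Fdft1 is squalene synthase, the first enzyme committed to sterols. It was at 86.0, 99.3, 105 and 110 CPM in the controls, at 139 and 179 CPM in ATF4 and at 83.6, 83.8, 88.4, 89.3 and 90.7 CPM in ATF3. It was at 48.0, 73.8, 88.0 and 90.4 CPM in CEBPG and at 117, 125, 129, 134 and 155 CPM in CHOP. CHOP and ATF4 did not overlap the other 3 groups. Fdft1 was higher than control in ATF4 (0.67, adjusted p = 0.00665) and CHOP (0.40, adjusted p = 0.0366) and lower in CEBPG (-0.41, adjusted p = 0.0407). The ATF4 call ended without ATF4 replicate 1. The CHOP call ended without any of control replicates 5, 7 and 8 and CHOP replicates 1, 3, 4 and 5, and the CEBPG call without any of control replicates 4 and 7 and CEBPG replicates 6 and 9. Fdft1 was lower than in CHOP by -0.60 in ATF3 (adjusted p = 0.0158) and by -0.81 in CEBPG (adjusted p = 0.000220). The ATF3 call ended without ATF3 replicate 7 or 9 or CHOP replicate 4.

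Ggps1 makes geranylgeranyl diphosphate, the branch away from sterols, and was called in 1 of the 7 comparisons. It was at 63.8, 91.7, 96.3 and 107 CPM in the controls, at 55.6 and 71.2 CPM in ATF4, at 84.5 to 95.9 CPM in ATF3, at 66.0 to 98.2 CPM in CEBPG and at 74.6 to 90.4 CPM in CHOP. The ATF4 libraries lay below those of ATF3 and CHOP, and all other pairs of groups overlapped. It was lower than control in ATF4 (-0.50, adjusted p = 0.0448), a call that ended without ATF4 replicate 1 or control replicate 4, 5 or 8. Ggps1 differed from CHOP by 0.15 in ATF3 (adjusted p = 0.750) and by -0.07 in CEBPG (adjusted p = 0.771).

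Sqle, squalene epoxidase, ran from 131 to 157 CPM in the controls, 80.0 to 94.8 CPM in ATF3, 40.6 to 93.9 CPM in CEBPG and 141 to 163 CPM in CHOP. It was lower than in CHOP by -0.82 in ATF3 (adjusted p = 0.00966) and by -1.13 in CEBPG (adjusted p = 0.000106), and lower than control in both (-0.69 and -0.99). Idi1, the isomerase of isopentenyl diphosphate, was lower than in CHOP by -0.88 in ATF3 and -0.83 in CEBPG. The ATF3 call of Idi1 (adjusted p = 0.0224) ended without any of ATF3 replicates 5, 6, 7 and 9 and CHOP replicates 1, 2 and 5, and the CEBPG call (adjusted p = 0.00810) ended without CEBPG replicates 6 and 8 together. Acat2, Pmvk and Mvd, which act early in the pathway, were lower in CEBPG than in CHOP by -0.53, -0.52 and -0.64. The calls of Acat2 and Pmvk ended without CEBPG replicates 6 and 8 together, and that of Acat2 also without CEBPG replicate 8 or 10 alone.

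Pmvk and Mvd were also lower than control in ATF3 (-0.48 and -0.48) and CEBPG (-0.72 and -0.66). The ATF3 call of Mvd ended without control replicate 7. Pmvk was higher than control in ATF4 (0.48), as was mevalonate kinase, Mvk (0.83). The Pmvk call ended without control replicate 4, 5 or 8 or ATF4 replicate 1, and the Mvk call without control replicate 5 or 8 or either ATF4 replicate. With Hmgcs1, Fdps and Fdft1, Pmvk made up the 4 members called higher than control in some knockouts and lower in others. The share of all genes with such mixed calls was not counted.

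From lanosterol to cholesterol, 3 of 10 members were lower in ATF3 than in CHOP and 3 of 10 in CEBPG, beside 0.756% and 13.2% of all genes. The medians were -0.44 and -0.32. The summed level of the 10 genes was 494 ± 26.2 CPM (SD, n = 5) in CHOP, 338 ± 19.6 CPM (SD, n = 5) in ATF3, 349 ± 49.2 CPM (SD, n = 4) in CEBPG, 401 ± 18.1 CPM (SD, n = 2) in ATF4 and 448 ± 20.3 CPM (SD, n = 4) in the controls. The CHOP libraries lay above all ATF3 and CEBPG libraries in this sum.

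Msmo1, the C4 methylsterol oxidase, was at 112, 115, 116 and 126 CPM in the controls, at 72.2 and 86.0 CPM in ATF4 and at 56.3, 63.6, 70.3, 76.5 and 79.6 CPM in ATF3. It was at 49.3, 55.2, 70.4 and 77.1 CPM in CEBPG and at 103, 126, 127, 129 and 147 CPM in CHOP. CHOP and the controls overlapped, and every library of the other 3 groups lay below both. Msmo1 was lower than control in ATF3 (-0.76, SE 0.14, adjusted p = 0.000141), CEBPG (-0.89, SE 0.15, adjusted p = 4.16e-05) and ATF4 (-0.57, SE 0.18, adjusted p = 0.0204), the last ending without ATF4 replicate 1. It was lower than in CHOP by -0.87 in ATF3 (adjusted p = 0.000408) and by -1.0 in CEBPG (adjusted p = 1.2e-05).

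Dhcr7, which reduces 7-dehydrocholesterol to cholesterol, was at 36.7, 44.3, 45.5 and 46.6 CPM in the controls, at 36 and 38 CPM in ATF4 and at 18.4, 18.5, 19.1, 20.2 and 27.4 CPM in ATF3. It was at 11, 13.1, 15.5 and 26.1 CPM in CEBPG and at 19.9, 23.1, 25.3, 28.4 and 42.7 CPM in CHOP. The 3 groups of batch 3 overlapped one another, and ATF3 and CEBPG lay below every control. Dhcr7 was lower than control in ATF3 (-1.06, SE 0.23, adjusted p = 0.00104), CEBPG (-1.39, SE 0.25, adjusted p = 0.000134), and also in CHOP (-0.63, SE 0.23, adjusted p = 0.0399). The CHOP call ended without any of control replicates 5, 7 and 8 and CHOP replicates 1, 2, 3 and 5. Dhcr7 was lower in CEBPG than in CHOP (-0.76, adjusted p = 0.0212), a call that ended without any of CEBPG replicates 6, 8 and 9 and CHOP replicate 4.

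Cyp51, the lanosterol 14-alpha demethylase, had means of 70.4 CPM in ATF3, 75.0 CPM in CEBPG and 118 CPM in CHOP, and was lower than in CHOP by -0.74 (adjusted p = 0.00380) and -0.65 (adjusted p = 0.00255). The CEBPG call ended without CEBPG replicates 6 and 8 together. Nsdhl, a sterol dehydrogenase, was lower in ATF3 than in CHOP (-0.80, adjusted p = 0.0407), a call that ended in a fit of batch 3 alone and without any 1 of the 5 ATF3 libraries or of CHOP replicates 2, 3 and 4. Lss, lanosterol synthase, was lower than control in ATF3 (-0.90). Nsdhl and Tm7sf2, a sterol reductase, were higher than control in ATF4 (0.83 and 0.78) and CHOP (0.65 and 0.52), and Cyp51 in CHOP (0.40). Each of those 5 calls ended when single libraries were left out. The ATF4 calls ended without either ATF4 replicate, and that of Nsdhl also without control replicate 5 or 7. The CHOP calls ended without control replicate 5 or CHOP replicate 3. That of Nsdhl also ended without control replicate 7 or CHOP replicate 4, that of Cyp51 without control replicate 7 or 8 or CHOP replicate 1, 4 or 5, and that of Tm7sf2 without control replicate 4 or 8 or CHOP replicate 1, 2 or 5. Hsd17b7, Ebp, Sc5d and Stard4 were called in none of the 7 comparisons. Their log2 differences ran from -0.91 to 1.17, both extremes from Stard4, a sterol carrier with as few as 9 reads in a library.

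**Figure D3:**
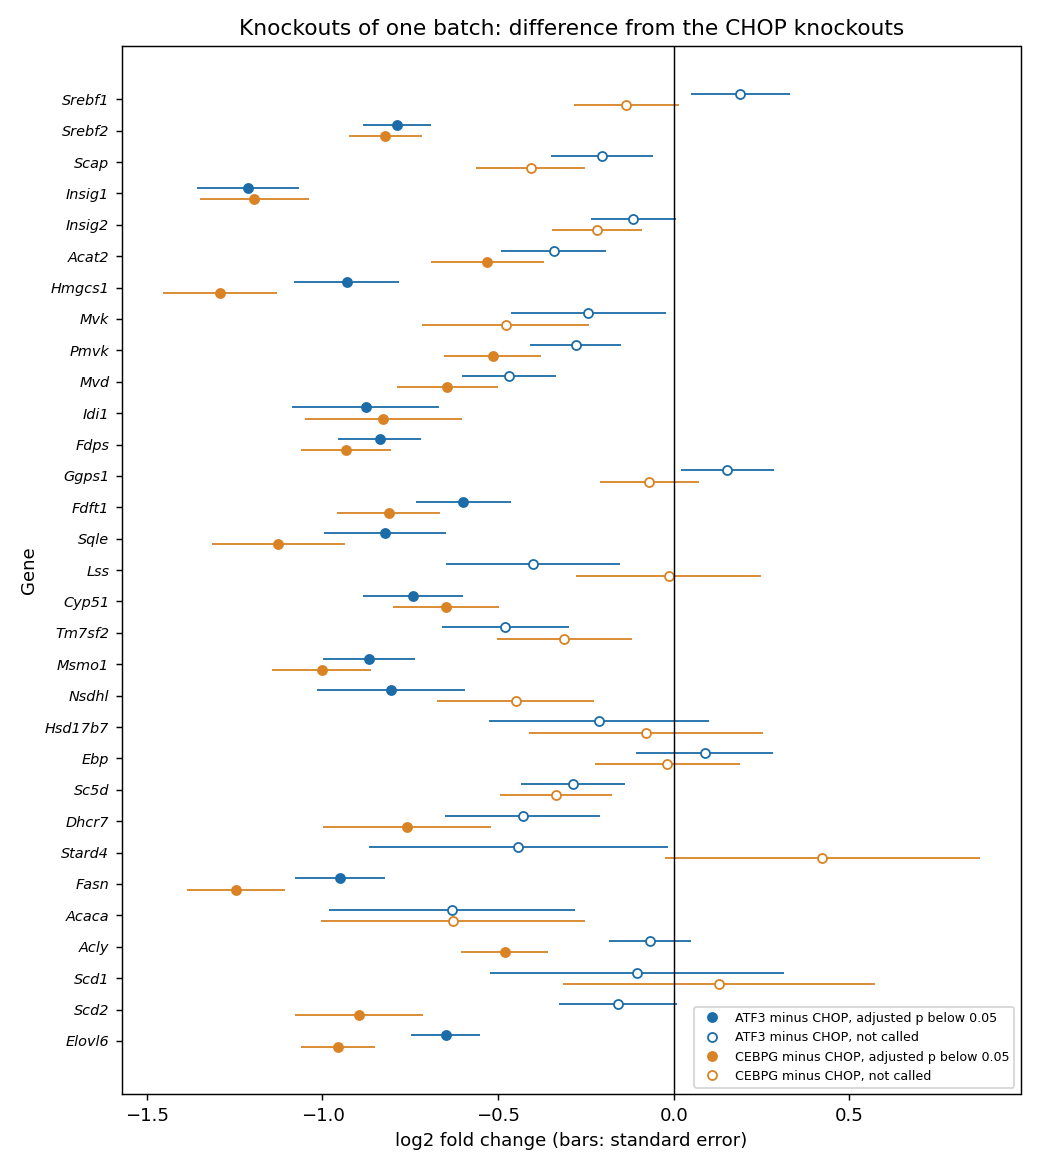
Log2 fold change of each of the 31 genes in the ATF3 knockouts (blue) and CEBPG knockouts (orange) minus the CHOP knockouts, which are the same 5 libraries in both, with standard errors. Filled points have an adjusted p below 0.05. All 12 filled blue and all 17 filled orange points lie left of 0.

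Fasn, Acly, Scd2 and Elovl6 of the fatty acid synthesis genes were lower in CEBPG than in CHOP. Relative to CHOP, 2 of 6 members were lower in ATF3 and 4 of 6 in CEBPG, beside 0.756% and 13.2% of all genes. The medians were -0.40 and -0.76, and the 3 members that differed between ATF3 and CEBPG all belong here. The summed level of the 6 genes was 1339 ± 173 CPM (SD, n = 5) in CHOP, 1126 ± 65.5 CPM (SD, n = 5) in ATF3, 780 ± 106 CPM (SD, n = 4) in CEBPG, 878 ± 146 CPM (SD, n = 2) in ATF4 and 896 ± 188 CPM (SD, n = 4) in the controls. ATF3 and CHOP overlapped in this sum, and CEBPG lay below both.

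Fasn, fatty acid synthase, was at 52.5, 59.5, 64.9 and 85.2 CPM in the controls, at 136 and 202 CPM in ATF4 and at 72.1, 74.9, 76.2, 79.2 and 80.8 CPM in ATF3. It was at 55.8, 56.4, 67.6 and 69.3 CPM in CEBPG and at 131, 141, 150, 155 and 163 CPM in CHOP. CHOP and ATF4 lay above every other library. Fasn was higher than control in ATF4 (1.37, SE 0.17, adjusted p = 1.95e-06). It was also higher than control in CHOP (1.18, SE 0.14, adjusted p = 5.04e-07). Its differences in ATF3 (0.23, adjusted p = 0.225) and CEBPG (-0.07, adjusted p = 0.743) were not called. It was lower than in CHOP by -0.95 in ATF3 (adjusted p = 0.000123) and by -1.25 in CEBPG (adjusted p = 6.57e-07).

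Elovl6, which elongates palmitate to stearate, was at 54.4, 54.9, 59.2 and 65.7 CPM in the controls, at 116 and 117 CPM in ATF4 and at 79.8, 96.2, 98.1, 98.1 and 99.0 CPM in ATF3. It was at 72.0, 73.2, 79.5 and 80.0 CPM in CEBPG and at 130, 136, 156, 156 and 161 CPM in CHOP. Every knockout library lay above every control, and CHOP lay above all. Elovl6 was higher than control in CHOP (1.33, SE 0.11, adjusted p = 1.7e-09), ATF4 (0.99, SE 0.13, adjusted p = 4.66e-06), ATF3 (0.69, SE 0.11, adjusted p = 2.3e-05) and CEBPG (0.38, SE 0.11, adjusted p = 0.0107). The CEBPG call ended without control replicate 5 or 8. It was lower than in CHOP by -0.65 in ATF3 (adjusted p = 0.000452) and by -0.96 in CEBPG (adjusted p = 6.4e-07). Between ATF3 and CEBPG it differed by 0.31 (adjusted p = 0.0410), a call that ended without any of ATF3 replicates 5, 6, 8 and 9 and CEBPG replicates 6 and 10.

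Scd2, the stearoyl-CoA desaturase most expressed in the nervous system, was at 246, 267, 354 and 481 CPM in the controls, at 258 and 333 CPM in ATF4 and at 503, 503, 523, 548 and 581 CPM in ATF3. It was at 220, 327, 331 and 396 CPM in CEBPG and at 455, 516, 557, 687 and 752 CPM in CHOP. ATF3 lay above CEBPG and the controls, and overlapped CHOP. Scd2 was higher in ATF3 than in CEBPG (0.74, SE 0.18, adjusted p = 0.00509), a call that ended without CEBPG replicates 6 and 8 together. It was higher than control in ATF3 (0.66, adjusted p = 0.00684) and CHOP (0.82, adjusted p = 0.00115) and lower in CEBPG than in CHOP (-0.90, adjusted p = 0.000743).

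Acly, which makes cytosolic acetyl-CoA from citrate, was at 344, 385, 416 and 494 CPM in the controls, at 239 and 309 CPM in ATF4 and at 348, 389, 392, 444 and 458 CPM in ATF3. It was at 267, 282, 334 and 335 CPM in CEBPG and at 366, 385, 415, 463 and 498 CPM in CHOP. CEBPG and ATF4 lay below every library of the other 3 groups. Acly was lower than control in ATF4 (-0.58, adjusted p = 0.00849), ending without ATF4 replicate 1, and in CEBPG (-0.43, adjusted p = 0.0135), ending without control replicate 4 or without CEBPG replicates 6 and 8 together. It was higher in ATF3 than in CEBPG (0.41, adjusted p = 0.0196), ending without ATF3 replicate 8 or 9 or CEBPG replicate 6 or 10, and lower in CEBPG than in CHOP (-0.48, adjusted p = 0.00567). Acaca, acetyl-CoA carboxylase, and Scd1, the other desaturase, were called in none of the 7 comparisons, with means of 12.1 to 20.3 CPM and 2.77 to 6.6 CPM across groups.

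**Figure D4:**
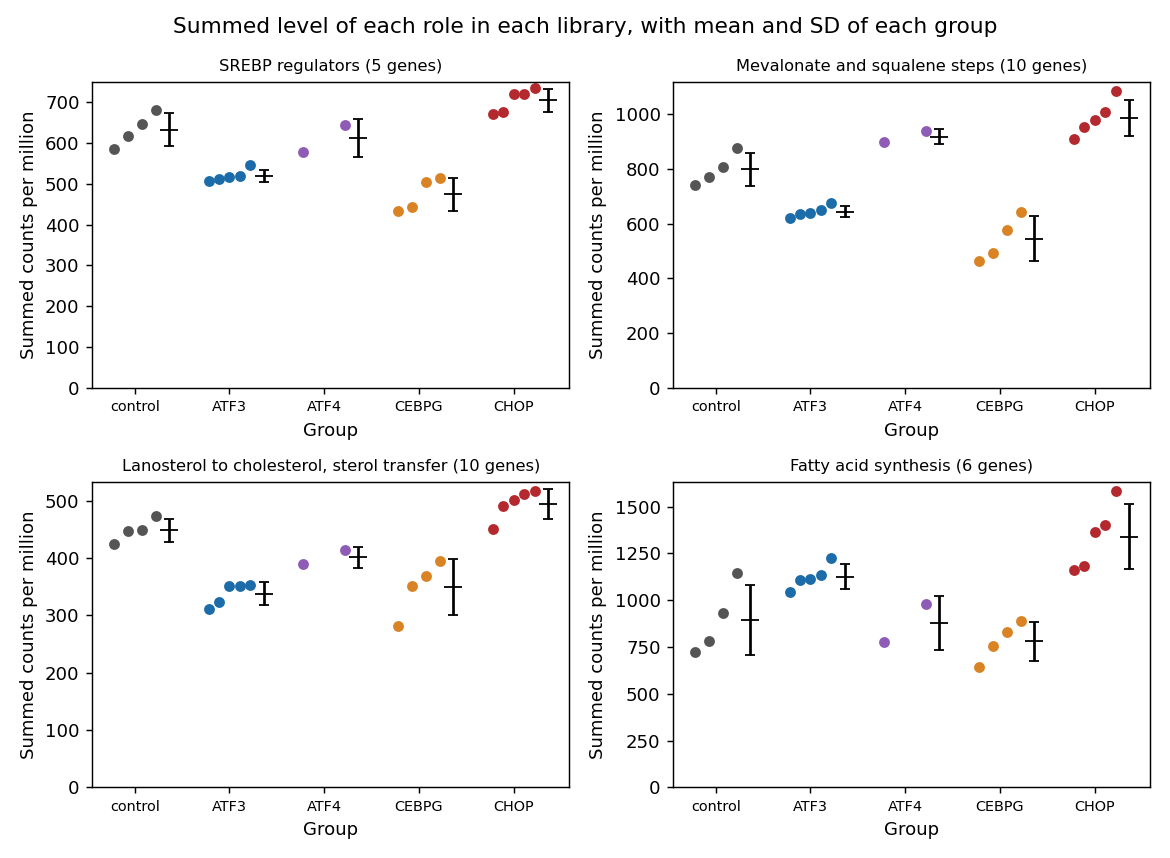
Summed CPM of the genes of each role in each library (points, in rising order within a group), with the mean and SD of each group to the right of its points. In the mevalonate and lanosterol panels all 5 CHOP libraries lie above all ATF3 and CEBPG libraries, and in the fatty acid panel the CEBPG libraries lie below both ATF3 and CHOP.

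Per kilobase of exon, Acly was the most abundant member in the controls at 77.6 ± 12 CPM per kb (SD, n = 4), followed by Scd2 at 61.7 ± 19.5, Srebf1 at 42.1 ± 2.56 and Hmgcs1 at 37.2 ± 6.43 CPM per kb. The spreads of Acly and Scd2 overlapped, as did those of Srebf1 and Hmgcs1. In the CHOP knockouts the order was Scd2 at 109 ± 22.5, Acly at 80.6 ± 10.4, Hmgcs1 at 65.2 ± 8.77 and Insig1 at 42.7 ± 2.52 CPM per kb (SD, n = 5). Stard4, Scd1 and Acaca were the lowest members in both groups, at 0.949 to 1.19 CPM per kb in the controls.

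Markers of other retinal cells also differed in these comparisons. Of all genes, 2.26% were called between ATF3 and CHOP and 26.7% between CEBPG and CHOP. Between ATF3 and CHOP, rod markers were lower in ATF3 for 8 of 11 genes (0.381% to 0.406% of reads against 0.493% to 0.840%), and bipolar markers were higher for 8 of 9 and lower for 1 (0.137% to 0.157% against 0.0571% to 0.0807%). Of the monocyte and neutrophil markers 4 of 6 were higher in ATF3, with 3 of the list at 0 in all CHOP libraries. Müller glia markers, 1 of 12 called, summed to 0.320% to 0.375% in ATF3 and 0.335% to 0.370% in CHOP, which overlap. Between CEBPG and CHOP, rod markers were lower in CEBPG for 11 of 11, amacrine for 7 of 9 and Müller glia for 7 of 12 (2 higher). Müller sums were 0.178% to 0.241% in CEBPG. Microglia markers were higher in CEBPG for 9 of 11 (0.788% to 0.912% against 0.415% to 0.614%). So were T and NK lymphocyte markers for 8 of 8 and monocyte and neutrophil markers for 6 of 6. The part of these cells in the SREBP differences was not tested.

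Other genes of the pathway, which are no members, were called in both directions, to be read against the 2.26% of all genes called between ATF3 and CHOP and the 26.7% between CEBPG and CHOP. Of 10 genes of SREBP processing and degradation, 0 were called between ATF3 and CHOP (median 0.02), and in CEBPG 4 were lower and 1 higher than in CHOP. Among the lower ones were Pgrmc1 (-0.61), Erlin2 (-0.73) and Faf2 (-0.39), and the higher one was Sec24d (1.21), a coat protein of vesicles leaving the endoplasmic reticulum. Of 11 other sterol and isoprenoid genes, 2 were lower in ATF3 and 0 higher, and in CEBPG 3 were lower and 1 higher. The latter include Dhdds (-0.54) and Fntb (-0.75), and Lbr (0.78). Of 19 genes of sterol uptake, export and storage, 3 were higher and 1 lower in ATF3 than in CHOP, among them Abca1 (0.70), a cholesterol exporter, and Ch25h (2.05), which makes 25-hydroxycholesterol. In CEBPG 8 were higher than in CHOP, among them Npc2 (0.80) and Abca1 (0.95), and 4 were lower, among them Vldlr (-0.81) and Lrp8 (-0.61). Of 24 genes of fatty acid desaturation, elongation and activation, Aacs (-0.54) was lower and Fabp5 (0.66) higher in ATF3 than in CHOP. In CEBPG 10 were lower and 2 higher, including Acsl6 (-0.93), Elovl4 (-0.90) and Fabp5 (1.47).

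Against the controls, the same 4 lists showed calls in both directions, to be read against the 33.4%, 31.3%, 33.4% and 33.5% of all genes called in ATF3, ATF4, CEBPG and CHOP. Of the 10 processing genes, 5 were higher and 1 lower in ATF3, 1 and 2 in ATF4, 2 and 2 in CEBPG, and 4 and 1 in CHOP. Pgrmc1, a binding partner of INSIG1, was higher in all 4 (0.84, 0.63, 0.29 and 0.90), and Rnf139, a ubiquitin ligase, was lower in all 4 (-0.42, -0.82, -0.58 and -0.60). Of the 24 fatty acid genes, 6 were higher and 7 lower in ATF3, 5 and 6 in ATF4, 4 and 7 in CEBPG, and 6 and 5 in CHOP. Elovl4, which makes very long chain fatty acids in photoreceptors, was lower in all 4 (-1.69, -2.52, -2.38 and -1.47). Of the 19 uptake and export genes, 4 were higher and 4 lower in ATF3, 4 and 3 in ATF4, 7 and 2 in CEBPG, and 3 and 5 in CHOP, with Lrp8 and Lrp1 among the higher genes. Of the 11 other sterol and isoprenoid genes, 0 were higher and 3 lower in ATF3, 1 and 5 in ATF4, 1 and 2 in CEBPG, and 4 and 2 in CHOP.

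The authors' deposited table gives a log fold change for each knockout without naming its reference group, taken here to be the controls. The authors' deposited table listed all 31 members and, at its false discovery rate below 0.05, called 0 higher and 1 lower in ATF3, 2 and 1 in ATF4, 0 and 4 in CEBPG, and 5 and 0 in CHOP. Of all genes, 7.99%, 5.77%, 22.1% and 7.3% were called in those comparisons in the authors' deposited table. The 5 members that the authors' deposited table called higher in CHOP were Srebf2 (log fold change 1.17, false discovery rate 0.00343), Hmgcs1 (1.34, 0.00654), Elovl6 (1.03, 0.0113), Fasn (1.36, 0.0132) and Insig1 (1.22, 0.0308). In ATF4 the authors' deposited table called Fasn and Elovl6 higher and Scap lower, and in ATF3 it called Scap lower. In CEBPG the authors' deposited table called Srebf1, Scap, Dhcr7 and Acly lower. If the reference is the controls, the signs were the same as in the present fit for 22, 22, 27 and 21 of 31 members in ATF3, ATF4, CEBPG and CHOP. The differing signs include members called in the present fit. These were Mvd, Fdps and Scd2 in ATF3, Pmvk and Fdft1 in ATF4, and Cyp51 and Dhcr7 in CHOP. Their false discovery rates in the authors' deposited table were 0.604 to 0.982.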

How the data were processed

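RNA of sorted mouse RGCs was sequenced after SMART-Seq v4 amplification, per the labels' protocols. The deposited file gives raw read counts per gene made by the authors, with STAR, Picard, HTSeq, edgeR and mm10 named in the submitters' processing notes; no label says whether counting used strand. A second table by the authors, also deposited, gives log2 fold changes (the log base and the reference group are not given, and were read as log2 and the controls) and p-values with false discovery rates. The authors' deposited sample sheet gives batch, sex, age and a fraction of duplicate read pairs per library (48.0% to 57.6%), and 41 of its per-library columns were not used.

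Counts were fitted in 1 model over 20 libraries with edgeR 4.0.16 (R 4.3.3): filterByExpr with a minimum count of 10, TMM scaling, robust quasi-likelihood fit, 15 residual degrees of freedom, 7 contrasts, Benjamini-Hochberg adjustment over 16797 genes, calls at 0.05. The biological coefficient of variation was 0.407. One library was left out because its labels disagree. CPM used TMM-scaled library sizes. No 2 libraries of a group agreed within sampling noise (chi-square per gene of at least 12.9). On simulated counts, 39% to 60% of genes changed by a log2 fold change of 1 were recovered, depending on the comparison. Of those changed by 2, 58% to 77% were recovered, and 1.65% to 6.02% of calls were false. The simulated counts held few changed genes and no shift of batch, sex or cell types. This share of false calls therefore does not cover shifts of that kind, which the comparisons with control may hold.

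The regulators and up to 5 called members per direction and comparison were given per library. Up to 4 called genes per direction were to be named from the other lists, and some genes that this rule names are not reported here. Members and lists were chosen with earlier results of these data known. Alternatives were other scalings (RLE, upper quartile), DESeq2 1.42.0, other count filters (none, 50), a threshold of 0.01, single libraries left out, CEBPG replicates 6 and 8 left out, fits of fewer groups and a replicate block. Gene models were GENCODE M21, and promoters were RefSeq's.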

Additional observations from a re-analysis of the deposited data

Results flagged for a closer look

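Among 124 groups of 4 or 5 libraries (31 members in 4 groups), 7 held a library whose gap to its nearest neighbour took up most of the group's range, and chance alone flags about 1 group in 20. In the controls these were Sqle in replicate 4 (157 CPM, nearest 132 CPM, gap over range 0.985), Mvk in replicate 5 (14.6 CPM, nearest 22.1 CPM, 0.941), Acaca in replicate 5 (38.5 CPM, nearest 15.9 CPM, 0.885) and Srebf1 in replicate 8 (216 CPM, nearest 242 CPM, 0.840). In the ATF3 knockouts they were Elovl6 in replicate 7 (79.8 CPM, nearest 96.2 CPM, 0.851), Pmvk in replicate 5 (54.0 CPM, nearest 42.1 CPM, 0.825) and Dhcr7 in replicate 9 (27.4 CPM, nearest 20.2 CPM, 0.800). Without the library concerned, Srebf1, Sqle, Elovl6, Pmvk and Dhcr7 kept their calls in ATF3 against control.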

How the results depend on the processing

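No member reversed its direction in a called comparison under any alternative. Under every alternative run at the threshold of 0.05, 10 of 13 members kept their call in ATF3 against control, 3 of 15 in ATF4, 6 of 13 in CEBPG and 7 of 14 in CHOP, 5 of 17 in CEBPG against CHOP, 0 of 12 in ATF3 against CHOP and 0 of 3 in ATF3 against CEBPG. Of the 12 in ATF3 against CHOP, all but Idi1, Fdft1 and Nsdhl lost their call under the replicate block only. At an adjusted p below 0.01, 6 members were called in ATF4, 8 in CEBPG, 8 in CHOP and 1 between ATF3 and CEBPG. The share of all genes called at 0.01 was not counted. In a fit of ATF4 and control alone, 9 members were called, beside 28.6% of all genes. Without CEBPG replicates 6 and 8, 0 of the 3 members that differed between ATF3 and CEBPG remained called. Leaving out 1 library at a time gave 12 to 14 called members in ATF3, 5 to 13 in ATF4, 10 to 14 in CEBPG, 8 to 13 in CHOP, 1 to 3 between ATF3 and CEBPG, 9 to 11 between ATF3 and CHOP, and 15 to 17 between CEBPG and CHOP. An ATF4 group of 1 library was assumed to vary like the other groups. With 1 library left out, 27.3% to 32.6% of all genes were called in ATF3, 28.8% to 33% in CEBPG and 28.2% to 32.5% in CHOP. In ATF4 it was 27.1% to 33.3% where the library left out was a control. The share was 16.6% to 20.5% between ATF3 and CEBPG, 1.38% to 2.1% between ATF3 and CHOP, and 22.6% to 25.9% between CEBPG and CHOP. Fewer libraries were used in these fits, and the cause of the other shifts was not tested. Other scalings ended the calls of Insig2 in ATF3, Srebf1, Pmvk and Ggps1 in ATF4, Cyp51 and Tm7sf2 in CHOP, and Elovl6 between ATF3 and CEBPG, and a minimum count of 50 ended that of Fdft1 in CEBPG. Fits of 2 groups ended the calls of Srebf2, Hmgcs1, Fdft1 and Elovl6 in CEBPG and of Cyp51 and Tm7sf2 in CHOP. Members with few reads were measured less precisely: Stard4 was not called at a log2 difference of 1.17 (SE 0.49, adjusted p = 0.0674) in CEBPG.

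With the replicate block, 3 members were called in ATF4, 6 in CEBPG and 8 in CHOP. Between ATF3 and CEBPG 1 was called, between ATF3 and CHOP 0 and between CEBPG and CHOP 5. In the same order, 7.87%, 18.3%, 16.2%, 11.3%, 0.0655% and 3.08% of all genes were called. Libraries with the same number did not deviate together (correlations of -0.0476 to 0.0264 over all pairs). Of the ATF3 libraries, 1 of 3 correlated best with its own number in CEBPG and 1 of 3 in the controls, and of the CHOP libraries 0 of 2 in the controls. ATF3 and CHOP share 1 number, 5, and under the block 11 genes in all were called between them.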

Other observations

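One further library has labels that disagree: its title and the sample sheet name a non-targeting guide, and its genotype label names a CHOP knockout. It held 33665965 counted reads and was listed in batch 4, apart from all other libraries. Of the 31 members, 10 lay within the range of the controls and 10 within that of the CHOP knockouts. The share of all genes within these ranges was not counted, so the counts do not assign the library to a group. Scaled together with the other 20 libraries, Srebf2 was at 124 CPM in it, between the controls (85.0 to 117 CPM) and the CHOP knockouts (226 to 249 CPM). Srebf1 was at 137 CPM, also between both. Insig1 (50.8 CPM) and Fasn (54.3 CPM) lay within the controls, and Elovl6 (76.5 CPM) between the groups. Hmgcs1 (115 CPM), Fdps (52.4 CPM) and Msmo1 (79.1 CPM) lay below every control and every CHOP library.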
